A study of Mus musculus with 10 samples.

Results

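The genes described here are 8 members of the reelin and netrin-G signalling systems, Reln, Vldlr, Lrp8, Dab1, Ntng1, Ntng2, Lrrc4c and Lrrc4, out of 48397 genes in the count table. They were chosen by name, from what the proteins do, and each was followed across the clusters of neurons that the study defined in the paraventricular hypothalamus (PVH). The data are single-cell RNA sequencing counts of neurons picked by hand from brain slices of male mice older than 7 weeks, offspring of Agrp-IRES-Cre mice crossed with the Ai9 tdTomato reporter line, in which Cre expressed from the Agrp locus switches on the red reporter. All cells came from this single condition: every slice had been incubated with blockers of neuronal activity (TTX, APV, DNQX) and with pronase before picking, and there was no treated or untreated group. The wells were spread over 10 plates of 96 wells, 706 cells of 960 wells were kept in the study's cell table, and 664 of them fell into 12 PVH clusters and 42 into the non-PVH clusters 5, 6 and 11. The plate was the replicate, and which animals a plate held is not given in the sources used here, so p-values measure the spread between plates.

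Reelin is a large secreted glycoprotein, best known for guiding neuronal positioning in the developing cortex and for modulating synapses in the adult brain. It binds the lipoprotein receptors VLDLR and ApoER2 (the product of Lrp8), whose tails carry the adaptor DAB1, and DAB1 is phosphorylated by kinases of the Src family when reelin binds. Netrin-G1 and netrin-G2 (Ntng1, Ntng2) are relatives of the secreted netrins that are anchored to the axonal membrane by a lipid, and they pair across the synapse with the leucine-rich repeat proteins NGL-1 (Lrrc4c) and NGL-2 (Lrrc4).

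The neuronal labels held for most cells. Snap25, a synaptic vesicle fusion gene, had a UMI (unique molecular identifier, a tag that counts original molecules) in 652 of 664 PVH-cluster cells, the PVH transcription factor gene Sim1 in 398 of 664 and the glutamate transporter gene Slc17a6 in 534 of 664. Sim1 shares ran from 32.0% of cells in cluster 9 to 83.3% in cluster 3. The vesicular GABA transporter gene Slc32a1 was found in 0 of 664 PVH-cluster cells and in 14 of 42 cells of the non-PVH clusters. Of the other inhibitory markers, Gad1 was in 4 of 664 and 21 of 42 cells and Gad2 in 93 of 664 and 29 of 42. Among the PVH clusters Gad2 was in 93.8% of cells of cluster 13, 30.0% of cluster 15 and 26.3% of cluster 14. The summed level of 15 markers of glia, vessels and ependyma was between 0.395 and 13.3 CPM (UMIs of a gene per 1000000 UMIs) in the PVH clusters, highest in cluster 10, with at most 8 of 15 found in a cluster. Their part in the results below was not tested. Cells of the 4 Q plates had a median of 235270 UMIs and those of the 6 AL and JM plates 85167, and clusters 4, 12 and 13 held no cell from a Q plate, so that plate set and cluster cannot be told apart there. By the neuropeptide gene most enriched in them, clusters 1 and 12 were Oxt clusters, 2 and 3 Avp, 4 Pdyn, 7 and 8 Sst, 9 and 15 Trh, 10 and 13 Crh and 14 Penk. Such a name does not say that every cell had the peptide gene or that other clusters lacked it. Cluster 14 had Penk in 45.6% of cells but Crh in all of them, 49 of 49 with Reln and 8 of 8 without. Crh was in 43.8% of cells of cluster 13 and Trh in 41.7% of cluster 15.

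Reln and Ntng1 were on in some clusters and off in others, Dab1, Vldlr, Lrp8 and Lrrc4c were found in all 12 PVH clusters, and Ntng2 was nearly absent. With a single UMI taken as detection, Reln was found in 138 of 664 PVH-cluster cells (20.8%), Ntng1 in 158 (23.8%), Dab1 in 174 (26.2%), Lrp8 in 184 (27.7%), Vldlr in 218 (32.8%), Lrrc4c in 264 (39.8%) and Lrrc4 in 72 (10.8%). Ntng2 was found in 2 cells, with 6 UMIs in all. With the limits of the study's methods, which call a gene on where more than 40% of a cluster's cells have it and off below 5%, Reln was on in 4 PVH clusters and off in 6, and Ntng1 was on in 4 and off in 4. Dab1 was on in 3 clusters, Vldlr in 4, Lrp8 in 2 and Lrrc4c in 3, and these 4 genes were off in none of the 12. The on calls of the receptor genes depended on the limit. With 3 UMIs required, Lrp8 was in 13 of 35 cells of cluster 7 and 17 of 57 of cluster 14, its on clusters. Thinning each cell to 63046 UMIs left 36.4% and 31.3% there. Vldlr had 3 UMIs in 16 of 36 cells of cluster 3, but in 75 of 221 of cluster 1, 18 of 53 of cluster 2 and 6 of 22 of cluster 4. Dab1 stayed on in its clusters 2, 3 and 4 either way. The on clusters of Reln and of Ntng1 were the same clusters, 12, 13, 14 and 15. Cluster 15 lay near the limit. Ntng1 was in 39.5% of its cells when the Q plates were left out and exactly at the limit of 40% when 3 UMIs were required, and Reln was in 36.4% of its Q plate cells.

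**Figure D1:**
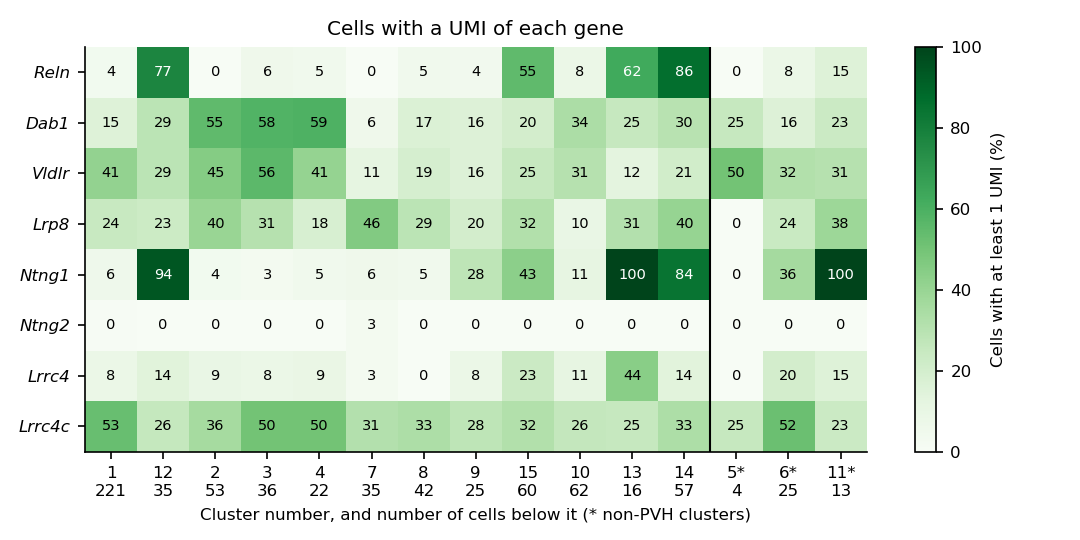
Percent of cells with at least 1 UMI of each member (rows) in each cluster (columns, non-PVH clusters 5, 6 and 11 marked by an asterisk). Reln and Ntng1 are dark in clusters 12 to 15, up to 86.0% of cells for Reln in cluster 14 and every cell for Ntng1 in cluster 13, while Dab1, Vldlr, Lrp8 and Lrrc4c have middling shares in nearly every column.

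Reln, the ligand, was concentrated in clusters 12 to 15. These held 168 of 664 PVH-cluster cells (25.3%), 119 of the 138 cells with Reln (86.2%) and 97.2% of its UMIs, while 16.5% of all UMIs of the PVH clusters were theirs. Cluster 14 had Reln in 49 of 57 cells (86.0%), cluster 12 in 27 of 35 (77.1%), cluster 13 in 10 of 16 (62.5%) and cluster 15 in 33 of 60 (55.0%). When each cell was thinned to 63046 UMIs, which left out the 71 shallower cells, these shares were 87.5%, 75.9%, 70.0% and 54.0%. Clusters 2 and 7 had none: the 0 of 53 cells of the former leave room for a share of up to 5.66%, and the 0 of 35 of the latter for up to 8.57%. Cluster 2 was the deeper cluster, with a median of 253588 UMIs per cell against 102969 in cluster 14. Elsewhere Reln appeared in 8 of 221 cells of cluster 1 (3.62%) and in 5 of 62 of cluster 10 (8.06%). The number of UMIs differed too. Cells with Reln carried a median of 33 Reln UMIs where cluster 14 was concerned, 27 for cluster 15, 19 for cluster 12, 9 for cluster 13 and 1 for cluster 1. These counts are not scaled for depth. The median total was 102969 UMIs in cluster 14, 87942.5 in 15, 85124 in 12, 74688.5 in 13 and 183836 in 1. Over all kept cells, those with Reln had a median of 36 Reln UMIs on Q plates and 20 on AL and JM plates. The part of depth was not tested.

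Levels over plates gave the same picture with more spread. For these, UMIs were summed over the cells of a cluster on a plate, where there were at least 3, and divided by the summed total, so that a level (CPM) cannot tell a larger share of expressing cells from more RNA per cell. Cluster 14 ran from 139 CPM on its lowest plate through a median of 295 to 437 on its highest (mean 289 ± 106, SD, n = 8 plates). Cluster 12 ran from 53.6 through 201 to 297 CPM (191 ± 98.9, n = 6). Cluster 15 ran from 0 on plate Q8 through 176 to 308 CPM (156 ± 118, n = 8). These ranges overlapped broadly, and the wide one of cluster 15 included a plate of 3 cells with none. Cluster 13 had 69.6 CPM on plate AL5, 54.4 on AL6 and 180.0 on JM6 (101 ± 68.5, n = 3). All 3 of its plates lay above the highest plate of cluster 10. Among the non-PVH clusters, cluster 6 had 146.5 CPM on plate Q7, 32.6 on Q6 and 0 on Q5, JM6 and JM8, and 159 of its 193 Reln UMIs came from 1 cell. Cluster 10, the Crh cluster without high Reln, ran from 0 through 0.831 to 52.2 CPM (11.7 ± 20.5, n = 7). The non-PVH cluster 11 had 0 CPM on plate JM6 and 42.9 on JM8. The remaining clusters were near 0, with 6.24 CPM the highest plate of cluster 1 and 2.06 the highest of cluster 3. In the order of the means no 2 neighbouring clusters were separate, as their mean ± SD ranges overlapped at each step.

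**Figure D2:**
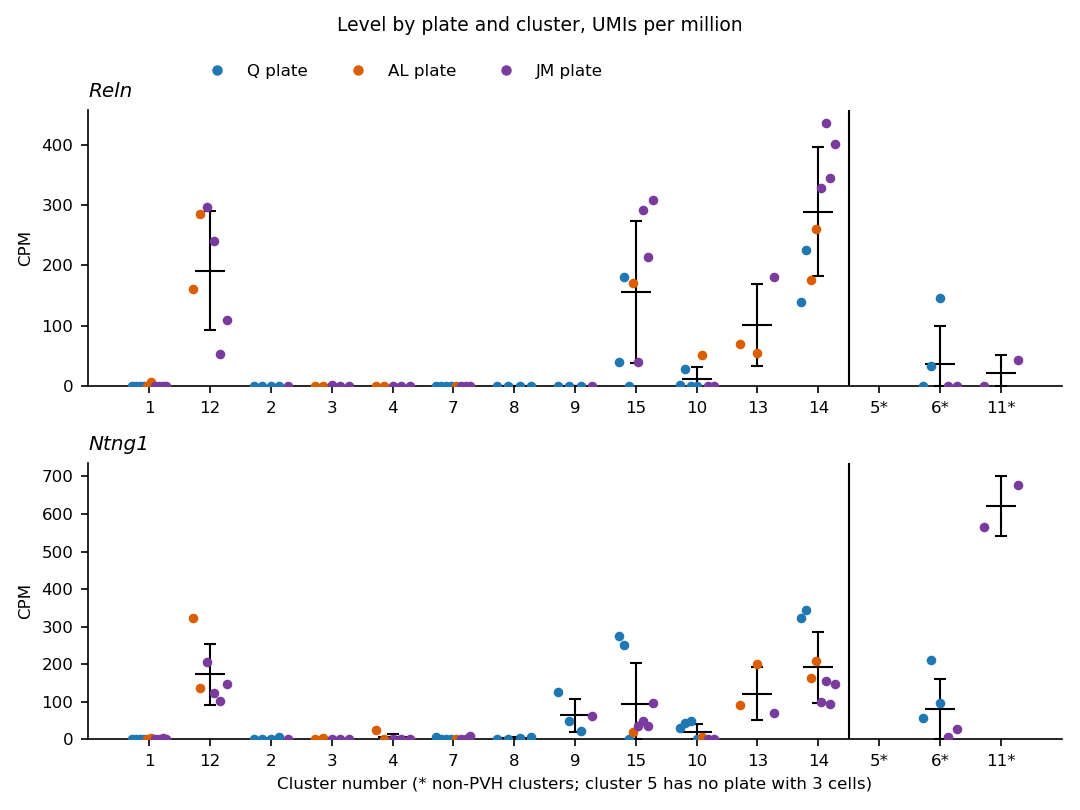
Level of Reln and of Ntng1 by cluster, in CPM of the UMIs summed per plate and cluster. Points are plates with at least 3 cells, coloured by plate name, horizontal lines the mean and whiskers the SD with the lower end cut at 0. Reln lies above 100 CPM on average in clusters 12 to 15 and Ntng1 is highest in cluster 11, at 565 and 678 CPM.

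The start of the Reln gene is shown because its level ran from 0 to 289 CPM between PVH clusters. Reln (ENSMUSG00000042453.14) lies at chr5:21884454-22344702 on the minus strand of GRCm38. The 250 bases before its RefSeq start, chr5:22344706-22344955, minus strand of GRCm38.p6, lie outside annotated UTRs and read as follows, with each CG in capitals.
Reln: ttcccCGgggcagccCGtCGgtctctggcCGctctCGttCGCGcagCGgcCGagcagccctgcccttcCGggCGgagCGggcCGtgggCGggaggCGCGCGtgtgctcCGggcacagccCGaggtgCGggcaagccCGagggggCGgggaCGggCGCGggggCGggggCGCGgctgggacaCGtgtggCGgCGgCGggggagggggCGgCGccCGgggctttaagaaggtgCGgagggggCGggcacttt
This window held 37 CG pairs, more than 97.8% of 32851 promoter windows of this length, for which the median was 6, and its GC content was 80.0% against a median of 52.4%. It held the letters CACGTG, a palindrome, 1 time, as 6.02% of all windows did at least once. The windows of other members were less rich, with 4 for Lrrc4c, 9 for Lrrc4 and 25 for Ntng1 (chr3:110143473-110143722, overlapping an annotated UTR). Dab1 was the exception, with 1 start at 40, whose window also overlaps an annotated UTR, and another at 10.

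Each PVH cluster was then tested against the remaining PVH clusters of the same plates, which asks where a member stands apart in the nucleus. The clusters were drawn from the expression of these same cells, and the study names Reln and Ntng1 as markers of its subgroups, so the calls below describe the clusters and are no independent evidence of them. The median log2 difference of all genes was below 0 in each of these tests, between -0.82 and -0.08, and relative log expression scaling moved it by at most 0.166. Over the 12 tests 3.28% of all gene tests passed an adjusted p of 0.05 (edgeR quasi-likelihood, Benjamini-Hochberg), and of 79 tests of members 14 did (17.7%), 3 higher and 11 lower. Reln and Ntng1 made up 11 of the 14, and the other members had 3 calls in 55 tests.

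Reln was higher in cluster 14 and lower in clusters 1, 2, 3, 4 and 7. In cluster 14 its level was 289 ± 106 CPM against 46.1 ± 29.3 in the other PVH clusters, a log2 difference of 2.92 (SE 0.334, edgeR adjusted p = 6.10e-05), higher on 8 of 8 plates and with no overlap between the 2 sides, where 1.42% of all genes were called higher. In cluster 1 it was 0.809 ± 1.93 against 95.6 ± 67.9 CPM, a log2 difference of -7.18 (SE 0.427, edgeR adjusted p = 9.40e-09), lower on 10 of 10 plates, where 6.3% of all genes were called lower. Cluster 3 held 2 Reln UMIs in all, and the pooled level of the other PVH clusters was 76.9 times as high (95% counting interval 21.3 to 635, edgeR adjusted p = 4.99e-05), with 1.9% of all genes lower there. Against a floor of 3 UMIs over the cluster, Reln was at least 182-fold lower in cluster 2 (edgeR adjusted p = 0.0284) and at least 72.2-fold lower in cluster 7 (edgeR adjusted p = 0.00193), where 0.776% and 4.96% of all genes were lower. In cluster 4 it was 0 on all 5 plates used (edgeR adjusted p = 0.00114), with 8 UMIs in 1 cell of a plate that had fewer than 3, and 0.427% of all genes were lower. In each of these 5 clusters every plate lay below the lowest plate of the other side. The call in cluster 2 was lost without plate Q5 (edgeR adjusted p = 0.0568), Q7 (0.0777) or JM8 (0.271). Clusters 8 and 9 were as poor in Reln, with 2 and 1 UMIs in all, but were not called. Both lay below the other side on 4 of 4 plates. Their log2 differences were -6.61 (SE 1.98, edgeR adjusted p = 0.251) and -7.34 (SE 1.94, edgeR adjusted p = 0.0865). Cluster 10 lay below on 5 of 7 plates (-3.45, SE 1.45, edgeR adjusted p = 0.190). Counting intervals and floors cover counting error only.

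Clusters 12, 13 and 15 also had Reln in most of their cells but did not pass this test. The log2 difference was 1.43 (SE 0.454, edgeR adjusted p = 0.150) in cluster 12, with the cluster above the others on 4 of 6 plates. In cluster 15 it was 1.36 (SE 0.561, adjusted p = 0.270), on 6 of 8 plates, and in cluster 13 it was 0.32 (SE 0.564, adjusted p = 0.924), on 2 of 3 plates. The comparison side of these tests held cells of cluster 14 and of the other Reln-rich clusters. Their part in these results was not tested. DESeq2 called Reln higher in clusters 12 and 15, and lower in clusters 8, 9 and 10.

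The receptor genes Vldlr and Lrp8 were found in every PVH cluster and separated them little. Vldlr (chr19:27216484-27254231, plus strand) had its highest PVH level in cluster 3, the Avp cluster of the AL and JM plates, with 33.3 CPM on plate AL5, 51.3 on AL6, 82.2 on JM6, 49.8 on JM7 and 104.9 on JM8 (mean 64.3 ± 28.8). Cluster 1, the large Oxt cluster, ran from 16.5 through 25.3 to 71.3 CPM (37.0 ± 20.4, n = 10), with a UMI in 91 of 221 cells. These ranges overlapped, and neither cluster passed the test for Vldlr. Cluster 7, an Sst cluster, was the 1 PVH cluster with a call. There 4 of 35 cells had Vldlr, the plates ran from 0 through 0 to 17.3 CPM (3.24 ± 5.998, n = 8) against 31.1 ± 10.6 in the others, and the log2 difference was -4.70 (SE 1.25, edgeR adjusted p = 0.0239), lower on 8 of 8 plates. That call did not hold without plate Q7 (edgeR adjusted p = 0.0626), Q8 (0.0642), JM6 (0.0670) or JM7 (0.0541), or without the plate block (0.0517). In cluster 14, the highest Reln cluster, Vldlr was 10.5 ± 13.8 CPM against 32.8 ± 7.76 and missed the threshold (log2 difference -2.37, edgeR adjusted p = 0.0659). DESeq2 called Vldlr lower there (DESeq2 adjusted p = 0.00131) and lower in cluster 14 than in cluster 10 (DESeq2 adjusted p = 0.0301).

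Lrp8 (chr4:107802261-107876840, plus strand), which encodes the reelin receptor ApoER2, passed in none of the 12 tests. Its highest PVH level was in cluster 8, the other Sst cluster, with 45.1 CPM on plate Q5, 58.4 on Q6, 53.1 on Q7 and 19.8 on Q8 (44.1 ± 17.1). Cluster 12 was lowest, at 5.41 ± 3.98 CPM against 19.8 ± 3.96 in the others, below them on 6 of 6 plates, with a log2 difference of -2.13 (SE 0.881, edgeR adjusted p = 0.312). Shares ran from 6 of 62 cells in cluster 10 (9.68%) to 16 of 35 in cluster 7 (45.7%). Vldlr had its lowest PVH share in cluster 7, at 11.4%, close to 12.5% in cluster 13. In cluster 14 Lrp8 was found in 23 of 57 cells (40.4%). Over all PVH clusters 61 cells had both receptor genes, and the product of their shares gives 60.4.

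Dab1 (chr4:103619359-104744844, plus strand), the adaptor of both receptors, was found in most cells of the Avp and Pdyn clusters. Cluster 2 had it in 29 of 53 cells (54.7%), cluster 3 in 21 of 36 (58.3%) and cluster 4 in 13 of 22 (59.1%), and the thinned shares were 52.0%, 50.0% and 55.6%. In cluster 2 its level was 92.9 CPM on plate Q5, 50.8 on Q6, 73.9 on Q7, 23.9 on Q8 and 112 on JM8 (70.8 ± 34.8), above the other PVH clusters on 5 of 5 plates, with a log2 difference of 2.06 (SE 0.556, edgeR adjusted p = 0.0937) that missed the threshold. DESeq2 called Dab1 higher there (DESeq2 adjusted p = 0.000472). Cluster 10 came next by level (45.1 ± 52.2 CPM), then cluster 3 (34.6 ± 29.2) and cluster 4 (32.8 ± 15.1), and none of these passed (edgeR adjusted p = 0.914, 0.908 and 0.810). Dab1 was lower in cluster 1, at 10.9 ± 7.24 against 28.4 ± 8.04 CPM (log2 difference -1.51, SE 0.374, edgeR adjusted p = 0.0119), on 10 of 10 plates. It was also lower in cluster 7, where 2 of 35 cells held 1 UMI each, so that the pooled level of the other PVH clusters was 63.8 times as high (95% counting interval 17.7 to 527, edgeR adjusted p = 0.00650), on 8 of 8 plates. Within the Q plates alone and within the AL and JM plates alone the adjusted p was 0.0653 and 0.288 for cluster 1, and 0.0865 and 0.224 for cluster 7. In clusters 12 to 15, which carry most of the Reln, 24.7% of the Dab1 cells were found, near their 25.3% of all PVH-cluster cells, with 13.7% of its UMIs, beside 16.5% of all UMIs.

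**Figure D3:**
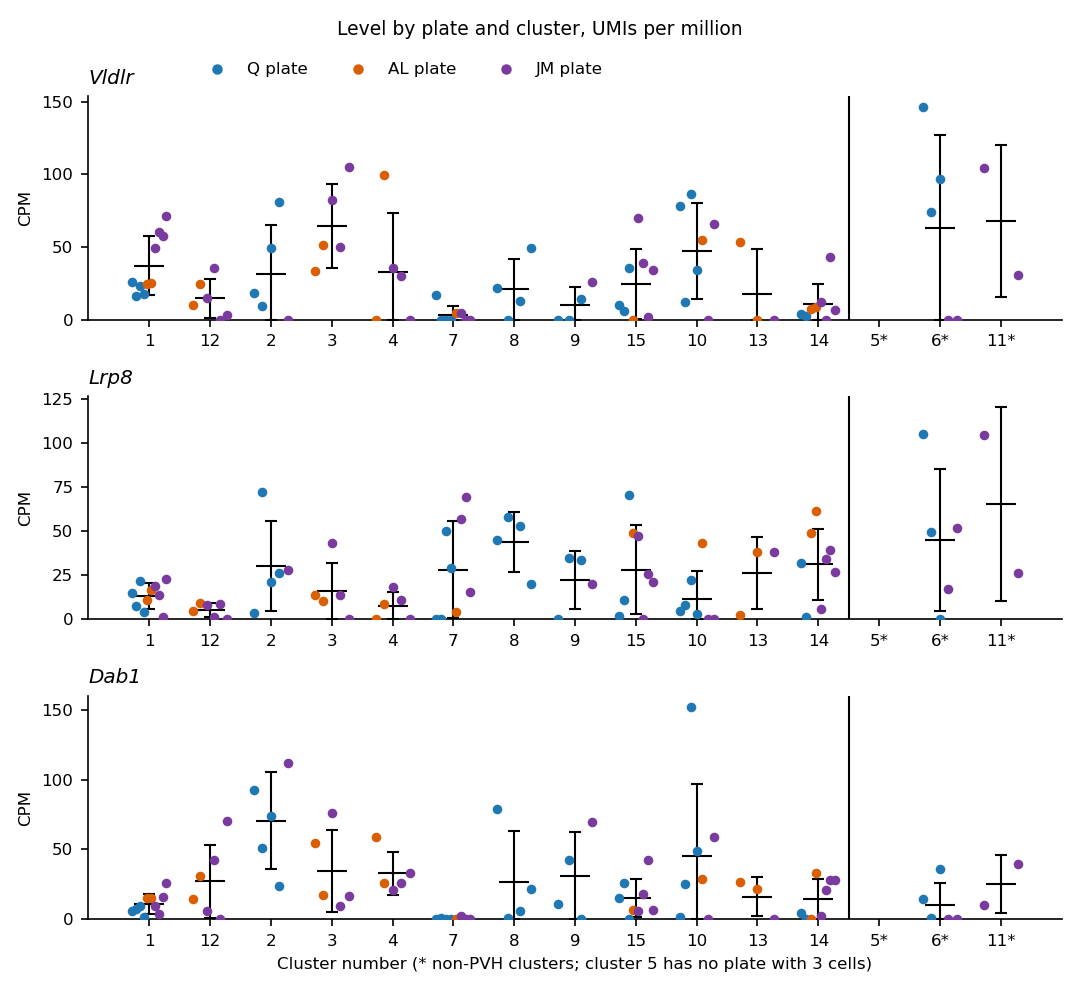
Levels of Vldlr, Lrp8 and Dab1 by cluster, in CPM of the UMIs summed per plate and cluster. Points are plates with at least 3 cells, coloured by plate name, horizontal lines the mean and whiskers the SD with the lower end cut at 0. Points spread widely in most clusters, Vldlr and Dab1 are low in cluster 7 (means 3.24 and 0.416 CPM) and Dab1 is highest in cluster 2 at 70.8 CPM.

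Genes for receiving reelin were found with each other, and with Reln, in about as many cells as the product of their shares gives. Dab1 was found together with Vldlr or Lrp8 in 93 of 664 PVH-cluster cells, and the product of the shares gives 89.4. Cluster 2, which had no Reln, held 21 such cells of 53, and cluster 3 held 16 of 36. Reln and Dab1 were found together in 35 cells, against 36.2 from the product of the shares. No test was made of these counts, which a cell's depth can move.

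A list of 30 other genes of the reelin pathway, its kinases, proteases and regulators of receptor turnover, gave 270 tests against the remaining PVH clusters, of which 3 passed higher and 4 lower (2.59%, beside 3.28% of all gene tests), and 5 of the genes were tested in none. Apoe, a lipoprotein that binds the same receptors, had 4 of the 7 calls. It was lower in cluster 12, at 0.978 ± 1.73 against 60.5 ± 27.97 CPM (log2 difference -5.70, SE 0.894, edgeR adjusted p = 0.00273), and in cluster 14, at 2.29 ± 3.17 against 47.8 ± 37.1 CPM (edgeR adjusted p = 0.00665). Apoe was higher in cluster 3, at 214 ± 120.4 against 40.5 ± 24.1 CPM (edgeR adjusted p = 0.0315), and in cluster 4, at 158 ± 128 against 42.4 ± 23.2 CPM (edgeR adjusted p = 0.0357). Yes1, a Src family kinase, was lower in cluster 10, at 0.178 ± 0.471 against 5.15 ± 1.87 CPM (edgeR adjusted p = 0.0260). Rnf7, of the ubiquitin ligase that degrades DAB1, differed by 0.25 in cluster 1 (SE 0.0761, edgeR adjusted p = 0.0442). Adamts5, one of the family of proteases that cleave extracellular matrix, had 0 UMIs on 5 plates of cluster 14 against 55.1 ± 69.5 CPM in cluster 10 (edgeR adjusted p = 0.000639), and was lower in cluster 1, at 0.461 ± 1.36 against 12.8 ± 10.9 CPM (edgeR adjusted p = 0.000354). In cluster 14 the median log2 difference of the list was 0.00, and that of all genes -0.39.

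Ntng1 (ENSMUSG00000059857.15, chr3:109780040-110144011, minus strand) followed Reln over the PVH clusters, and was also strong outside them. Cluster 13 had it in 16 of 16 cells, cluster 12 in 33 of 35 (94.3%), cluster 14 in 48 of 57 (84.2%) and cluster 15 in 26 of 60 (43.3%), and together they held 123 of the 158 PVH-cluster cells with Ntng1 (77.8%) and 88.0% of its UMIs. The level of cluster 14 ran from 92.3 through 159 to 343 CPM (191 ± 95.1, n = 8) and that of cluster 12 from 103 through 141 to 322 CPM (172 ± 81.0, n = 6). All plates of these clusters had Ntng1, and their ranges overlapped. In cluster 14 both Q plates with at least 3 cells, at 323 and 343 CPM, lay above the AL and JM plates, the highest of which had 208. Cluster 13 had 91.1 CPM on plate AL5, 201 on AL6 and 69.2 on JM6 (121 ± 70.9). Cluster 15 was uneven, from 0 through 40.5 to 274 CPM (94.2 ± 107, n = 8), with its 2 highest values on plates Q5 and Q7. Cluster 9, a Trh cluster with 1 Reln UMI in all, had 125 CPM on plate Q5, 49.4 on Q6, 20.4 on Q7 and 60.8 on JM8 (63.9 ± 44.2), from 7 of 25 cells. Its range lay within that of cluster 15. The means of the remaining PVH clusters were 18.2 CPM in cluster 10 and below 5 in the others. Outside the PVH clusters, cluster 11 had Ntng1 in 13 of 13 cells, at 565 CPM on plate JM6 and 678 on JM8 (622 ± 80.1), and its step above cluster 14 was the 1 place in the order of any member where neighbouring means did not overlap within their SD. Cluster 6 had 56.7 CPM on plate Q5, 212 on Q6, 96.8 on Q7, 4.36 on JM6 and 27.8 on JM8 (79.5 ± 81.7).

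In the test against the remaining PVH clusters, Ntng1 was higher in clusters 12 and 14 and lower in clusters 1, 3 and 7. It was 172 ± 81.0 against 29.9 ± 14.8 CPM in cluster 12 (log2 difference 2.496, SE 0.393, edgeR adjusted p = 0.00277), higher on 6 of 6 plates without overlap of the sides, where 0.651% of all genes were called higher. In cluster 14 it was 191 ± 95.1 against 30.0 ± 11.4 CPM (log2 difference 2.504, SE 0.313, edgeR adjusted p = 0.000125), higher on 8 of 8 plates. In cluster 1 it was 0.820 ± 1.38 against 68.6 ± 39.4 CPM (log2 difference -6.74, SE 0.536, edgeR adjusted p = 2.62e-07), lower on 10 of 10 plates, as it was on 8 of 8 plates of cluster 7 (-5.82, SE 1.21, adjusted p = 0.00471). The call in cluster 7 was lost with at least 5 cells per sum (edgeR adjusted p = 0.151), with the Q plates only (0.104) and with the Q plates left out (0.134). Cluster 3 held 1 Ntng1 UMI, and the pooled level of the others was 151 times as high (95% counting interval 27.1 to 5979, edgeR adjusted p = 0.00326). Ntng1 was not called in cluster 13 although all of its cells had the gene (log2 difference 1.32, SE 0.612, edgeR adjusted p = 0.377, above the others on 3 of 3 plates).

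Ntng1 was the 1 member that passed between the PVH and the non-PVH cells. On the 5 plates with at least 3 cells of both, it was 40.7 ± 16.8 CPM in the PVH clusters and 227 ± 135 in the non-PVH clusters. The log2 difference was -2.25 (SE 0.468, edgeR adjusted p = 0.0434), lower on 5 of 5 plates, and 0.273% of all genes were called lower. The sides overlapped across plates, at 16.5 to 59.8 CPM and 56.7 to 419 CPM. The call was lost without plate Q6 (edgeR adjusted p = 0.191), Q7 (0.227), JM6 (0.182) or JM8 (0.207). In this comparison 73.7% of the called genes were higher in the PVH clusters, and 59.0% with relative log expression scaling.

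Ntng2 (chr2:29194541-29253005, minus strand), the other netrin-G, was near absent from these libraries. Its 6 UMIs lay in 1 cell of cluster 1 and 1 of cluster 7, and it had too few to be tested in any cluster. Its receptor gene Lrrc4 (chr6:28661831-28831747, minus strand) lies wholly within Snd1 on the opposite strand, and whether the counting used strand is not stated, so reads of the 2 genes cannot be told apart. Lrrc4 was on in cluster 13 alone, in 7 of 16 cells (43.8%), with 10.7 CPM on plate AL5, 16.3 on AL6 and 17.3 on JM6. The mean of 14.8 CPM was 5.29 after thinning and 33.2 with UMIs pooled over all plates, among them JM5 (118 CPM) and JM8 (54.4), which had 2 cells each. Its mean over plates was highest in cluster 15, where the plates ran from 0 through 13.9 to 152 CPM (34.8 ± 53.1, n = 8), the 2 highest being Q7 and Q8. It was tested in 7 of the 12 clusters and called in none by edgeR, while DESeq2 called it lower in cluster 1 (DESeq2 adjusted p = 0.00817). In cluster 8 it was found in 0 of 42 cells, at least 14.2-fold lower than the pooled others against the floor of 3 UMIs (edgeR adjusted p = 0.251).

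Lrrc4c (chr2:96318169-97631666, plus strand), which encodes the netrin-G1 receptor, was the member found in most cells. Cluster 1 had it in 117 of 221 cells (52.9%, and 42.6% after thinning), cluster 3 in 18 of 36 and cluster 4 in 11 of 22 (50.0% each). Clusters 12 to 15 held 19.3% of its PVH-cluster cells, beside 25.3% of all cells, and 11.3% of its UMIs, beside 16.5% of all UMIs. In cluster 3 its level was 23.8 CPM on plate AL5, 88.9 on AL6, 55.5 on JM6, 122 on JM7 and 128 on JM8 (83.7 ± 44.4), above the others on 4 of 5 plates. The log2 difference there was 1.18 (SE 0.453, edgeR adjusted p = 0.234), and none of its 12 tests passed. In cluster 14 it was 19.2 ± 20.7 against 36.1 ± 10.3 CPM, below the others on 7 of 8 plates (log2 difference -1.70, SE 0.817, edgeR adjusted p = 0.282), and DESeq2 called it lower there. Ntng1 and Lrrc4c were found in the same cell in 51 of 664, against 62.8 from the product of their shares over all PVH clusters. Within a cluster the joint counts were nearer the product. Both were found in 9 of 35 cells of cluster 12 against 8.49, and in 8 of 60 of cluster 15 against 8.23. In cluster 1 it was 8 of 221 against 6.88, and in cluster 10 it was 0 of 62 against 1.81. In cluster 14 both were in 31.6% of cells, against 28.1% from the product. These counts were not tested.

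The NGL side of the system was followed in 6 other genes, the receptor Lrrc4b, presynaptic receptor phosphatases and scaffold partners. Of their 70 tests against the remaining PVH clusters, 2 passed higher and 3 lower (7.14%, beside 3.28% of all gene tests). The 3 lower calls were all in cluster 1, where 6.3% of all genes were called lower. Ptprd, a presynaptic receptor phosphatase, was higher in cluster 2, at 151 ± 31.6 against 53.3 ± 18.2 CPM (log2 difference 1.60, SE 0.308, edgeR adjusted p = 0.0226), on 5 of 5 plates, as it was in cluster 3 (1.19, SE 0.289, adjusted p = 0.0411), and it was lower in cluster 1 (-0.79, SE 0.208, adjusted p = 0.0182). Ptprf, of the same phosphatase family as Ptprd, was higher in cluster 12 than in cluster 1, at 127 ± 40.1 against 45.7 ± 17.0 CPM (log2 difference 1.26, SE 0.361, edgeR adjusted p = 0.0418), and lower in cluster 1 than in the remaining PVH clusters (-1.09, SE 0.152, edgeR adjusted p = 0.000108).

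**Figure D4:**
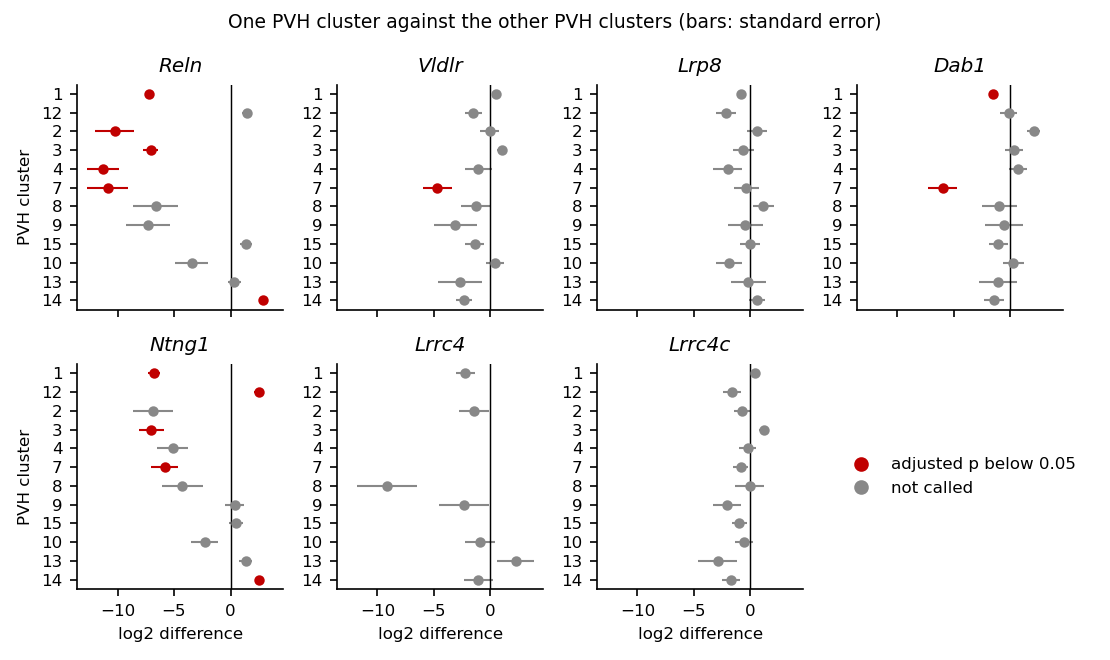
Log2 difference of each member between 1 PVH cluster and the remaining PVH clusters, from the edgeR fits, with bars of 1 SE and red symbols for an adjusted p below 0.05. The 14 red symbols are mostly Reln and Ntng1, and where a cluster had no UMI on any plate (Reln in clusters 2, 4 and 7, Lrrc4 in cluster 8) the fitted value depends on a prior count and shows direction only.

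Some pairs of clusters with related markers were compared directly. In each of the 4 pairs both Reln and Ntng1 went one way on every plate with at least 3 cells of both clusters, and the plate counts below cover these plates. Reln passed in 3 pairs and Ntng1 in 2, and the difference between the genes was not tested. Between the Oxt clusters, cluster 12 had both genes higher than cluster 1 on 6 of 6 plates, Reln by 7.55 on the log2 scale (SE 0.814, edgeR adjusted p = 4.99e-10) and Ntng1 by 8.42 (SE 1.04, edgeR adjusted p = 7.59e-09), where 0.734% of all genes were higher. Between the Trh clusters, cluster 15 had 39.4 to 308 CPM of Reln on the 3 plates with at least 3 cells of both. Cluster 9 had at most 0.584 there, a single UMI. The pooled ratio was 759 (95% counting interval 136 to 29994, edgeR adjusted p = 0.000123), and 0.482% of all genes were higher. Ntng1 was above in cluster 15 on 3 of 3 such plates, at 207 ± 96.8 against 68.8 ± 52.8 CPM, but did not pass (log2 difference 0.71, SE 1.009, edgeR adjusted p = 0.854). On plate Q8, with 3 cells of cluster 15 and 2 of cluster 9, Ntng1 went the other way, at 0 and 112 CPM. Cluster 14, which also had Crh in every cell, was set against the Crh cluster 10. Cluster 14 had Reln higher by 4.48 (SE 0.964, edgeR adjusted p = 0.00176) and Ntng1 by 3.62 (SE 0.977, edgeR adjusted p = 0.0163), on 5 of 5 plates each, where 2.56% of all genes were higher. That call of Ntng1 was lost without plate Q5 (edgeR adjusted p = 0.0520), AL5 (0.0769), JM6 (0.0805) or JM8 (0.0577). Between the Reln-rich clusters 14 and 15 no member passed, and 0.0306% of all genes did in either direction. Both genes were above in cluster 14 on 7 of 7 plates, Reln by 0.82 (SE 0.657, edgeR adjusted p = 1.0) and Ntng1 by 1.15 (SE 0.795, edgeR adjusted p = 0.981).

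Reln and Ntng1 were often in the same cell when all PVH clusters were counted together, and within a cluster their joint counts were near the product of their shares. Of the 138 PVH-cluster cells with Reln, 93 had Ntng1 (67.4%, 95% Clopper-Pearson interval 58.9% to 75.1%), and of those without Reln 65 did (12.4%). Over all PVH clusters the product of the shares gives 32.8 cells with both. Within cluster 12 both were found in 25 of 35 cells, against 25.5 from the product, within cluster 14 in 41 of 57 against 41.3, and within cluster 15 in 15 of 60 against 14.3. By detection of a single UMI, cluster 15 held 18 cells with Reln alone, 11 with Ntng1 alone and 16 with neither. The part that missed detection had in these counts was not tested.

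**Figure D5:**
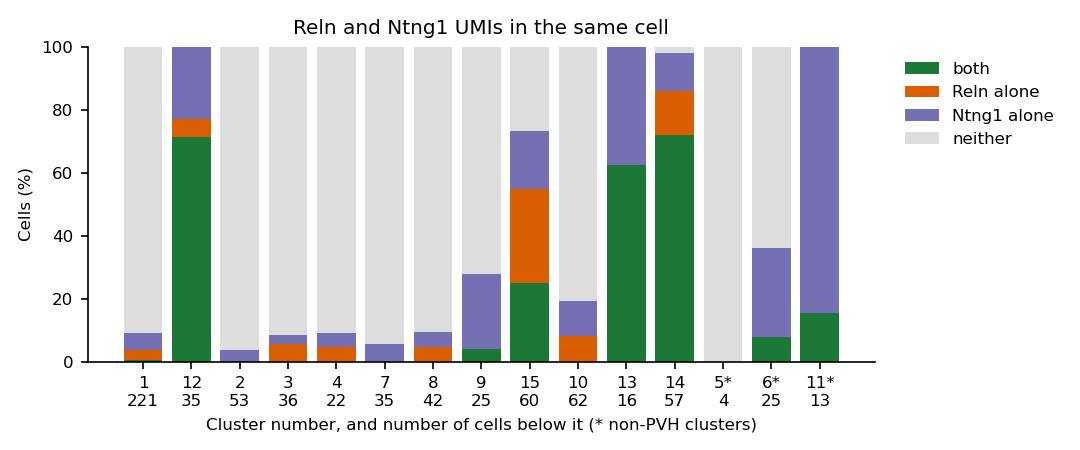
Cells with Reln and Ntng1, with Reln alone, with Ntng1 alone and with neither, as percent of the cells of each cluster. Cells with both make up 71.9% of cluster 14 and 71.4% of cluster 12 but 25.0% of cluster 15, and nearly all cells of clusters 1 to 8 of the PVH have neither.

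Genes whose pattern over clusters was most like each member were ranked by Pearson's r of log2(mean CPM + 1) over the 15 clusters, among 8793 genes, with no test, as the clusters share plates. For Reln these were Cbln4, of the cerebellin family of secreted synaptic proteins (r = 0.881), Lgi3, a secreted leucine-rich repeat protein (0.857), and the endocytic gene Ehd3 (0.852). For Ntng1 they were Mpped2 (0.922), the plasma membrane calcium pump gene Atp2b1 (0.918) and the growth factor gene Tgfb2 (0.916). The r between Reln and Ntng1 was 0.778, and 0.858 over the 12 PVH clusters. For Dab1 the most alike were the cation channel gene Trpc5 (0.812) and Pkp4, for Vldlr the clock-controlled transcription factor gene Dbp (0.813), Vps36 and Gm42771, and for Lrp8 Llph (0.931), Slc7a5 and Alg14. Lrrc4 was most like Srp68 (0.850), Ttc19 and Ash1l, and Lrrc4c most like Psme2 (0.797), Rpp25l and Gm5617. When shares of cells took the place of levels, 1 of these 21 genes stayed among the first 3 of its member.

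Depth differs between plate sets, so in clusters 1, 7, 10 and 15, which had at least 3 plates of each set, the levels of members found in at least 5% of cells were set against each other, with exact two-sided permutation tests over plates. None of 25 tests passed after Benjamini-Hochberg adjustment, and 1 had an unadjusted p below 0.05: Vldlr in cluster 1 was 20.6 ± 4.39 CPM (n = 4) on the Q plates and 47.9 ± 19.4 (n = 6) on the AL and JM plates (two-sided exact permutation p = 0.0286, adjusted p = 0.714). Its share in cluster 1 was 33.6% of cells on the Q plates and 48.2% on the AL and JM plates. Ntng1 in cluster 15 was 175 ± 152 CPM on 3 Q plates and 46.0 ± 29.4 on 5 others (exact permutation p = 0.214, adjusted p = 0.952), and Reln there was 73.6 ± 95.3 and 205 ± 108 (exact permutation p = 0.179, adjusted p = 0.952). The smallest p such a test can give is 0.00952 for cluster 1, 0.0286 for cluster 7, 0.0571 for cluster 10 and 0.0357 for cluster 15. No single test could therefore have passed the adjustment over 25 tests by itself, and the count of 0 says nothing about stability. The other clusters were not tested. In cluster 14, with 2 Q plates of at least 3 cells, Ntng1 averaged 333 CPM on these and 144 on the AL and JM plates, and Reln 183 and 325.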

How the data were processed

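Cells were picked by hand, converted to barcoded cDNA by Smart-SCRB and pooled per plate. The authors deposited raw UMI counts per gene and well, with a table of cells kept after quality control and their cluster numbers. The submitters' processing notes name Trimmomatic 0.36, STAR 2.5.3a and GRCm38.p5. The counting tool, its annotation, its use of strand and any correction of UMIs are not given in the sources used here. The labels describe tdTomato neurons as picked, the methods use Agrp axons to locate the PVH, and the kits and sequencers they name differ. Spike-in counts and well barcodes were not used here. No doublet caller was run, as cells were picked singly.

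The members and gene lists were chosen with earlier results of these data known. Text names the 8 members in every comparison, the 3 genes most similar to each, and of the pathway lists up to 10 genes by log2 difference among those called. Of the genes this rule names, 2 are not reported here. Kept cells had 50646 to 1078101 UMIs (median 128672), 43 to 87 cells per plate. UMIs were summed per plate and cluster with at least 3 cells and tested in edgeR 4.0.16 (R 4.3.3; TMM, filterByExpr, robust quasi-likelihood F test, plate as an additive block, Benjamini-Hochberg over all genes). Each plate holds both sides of a comparison, which is why plate was a block. DESeq2 1.42.0, other scaling, filters, cell minimums and plate sets were alternatives. Shares have exact Clopper-Pearson intervals at 95%, and a count of 0 allows 3 counts. UMIs in a cell are not independent draws, so these cover counting error only. Python 3.11.15 served for thinning, shares and permutation tests (scipy 1.17.1, pandas 2.3.3, numpy 2.4.6) and for figures (matplotlib 3.10.9). The fits were tested on simulated counts. Positions are from GENCODE on GRCm38, and promoter windows from RefSeq on GRCm38.p6, which had all 8 members.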

Additional observations from a re-analysis of the deposited data

Results flagged for a closer look

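Lrrc4c in cluster 1 was 76.8 CPM on plate Q6, far above the other plates of that cluster, which lay between 14.9 and 45.9 CPM. Of 19 groups of plates checked for such a gap, chance would set apart about 1 in 20.

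The 254 wells outside the study's cell table, which no comparison used, held UMIs of most members. Their median total was 29122 UMIs against 128672 in the table. Of these wells 11.02% had Reln, 9.06% Dab1, 12.2% Vldlr, 11.8% Lrp8, 14.96% Ntng1, 5.12% Lrrc4 and 13.8% Lrrc4c, where a count of 0 would allow up to 1.18%. Wells left empty on purpose are not told apart from picked cells in this count.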

How the results depend on the processing

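No called difference changed direction under the alternatives run. The 14 member calls between a PVH cluster and the rest became 27 with DESeq2, which called 11933 genes in all against 4296, 2 over the 7 comparisons the Q plates alone allow, 9 over the 9 the AL and JM plates alone allow, and 12 to 15 when a plate was left out. For PVH against non-PVH cells the 1 call became 0 with the Q plates alone and 0 to 1 without a plate, DESeq2 called 579 genes against 114, and the AL and JM plates alone were too few to fit. For pairs of clusters the 5 calls became 0 over the 1 pair the Q plates allow and 4 to 5 without a plate, and DESeq2 called 3910 genes against 944. Relative log expression scaling, no filter and DESeq2 kept 20 of 20 called differences, no plate block lost 1, at least 5 cells per sum lost 5, the Q plates alone lost 8 and the AL and JM plates alone lost 4 of those they could test, and leaving out a plate lost 15 of 200. Pairs of a PVH cluster and a member that was on in it numbered 21 of 96. They numbered 6 on the Q plates alone, where clusters 4, 12 and 13 had no cell, and 13 when 3 UMIs were required. Of the 21 most similar genes 1 stayed under shares and 1 over the PVH clusters alone. Levels kept within 1 SD in 320 of 325 alternatives and shares in 73 of 85. Leaving out 1 plate cannot move a mean over plates by more than 1 SD. A plate without cells of the cluster leaves its mean unchanged. The count for levels was therefore largely fixed in advance and says little about stability. The causes were not tested. Depth limits what a share of 0 shows, and clusters 5, 11 and 13 had too few cells or plates for firm levels.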

Other observations

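Within cluster 15 the cells with and without Reln were set against each other for 7 neuropeptide genes, and the largest differences in share were in Pdyn, Trh and Sst, a pattern chosen after its values were seen and given with no test. Pdyn, which encodes prodynorphin, had a UMI in 20 of 33 cells with Reln and in 3 of 27 without, with the higher share on 5 of the 6 plates that held both kinds and an equal share on 1. Trh, which encodes thyrotropin-releasing hormone, was found in 8 of 33 cells with Reln and in 17 of 27 without, with the lower share on 5 of 6 plates and the higher on 1. Sst was in 8 of 33 and 15 of 27, and the shares were closer for Penk (39.4% and 40.7%), Oxt (97.0% and 92.6%) and Avp (90.9% and 88.9%). Crh was found in 0 cells of either kind. In cluster 14, with 49 cells with Reln and 8 without, Pdyn was in 73.5% and 50.0% and Trh in 12.2% and 37.5%, the same directions. The median total in cluster 15 was 101559 UMIs in cells with Reln and 81392 in cells without.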
